A study of Mus musculus with 6 samples.

Results

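NRF2, its inhibitor KEAP1 and 8 of their best known antioxidant targets were followed in a mouse liver cell line with and without the fusion kinase DNAJ-PKAc. The 10 genes were chosen by name, with earlier results of these data known (Nfe2l2, Keap1, Nqo1, Hmox1, Gclc, Gclm, Gsr, Srxn1, Txn1 and Txnrd1). All 10 were among the 24054 genes of the deposited table, and all 10 passed the filter on low counts that 10975 genes passed. The study compared total RNA of TIBxDNAJ-PKAc, a line of genotype DNAJ-PKAc that the labels call an FLC line, with that of its parental line TIBx, genotype WT. FLC is fibrolamellar carcinoma of the liver, whose defining lesion joins the co-chaperone DNAJB1 to the catalytic subunit of protein kinase A. Each line gave 3 libraries, replicates A, B and C. Both lines were grown in the same DMEM with fetal bovine serum, added glutamine, pyruvate and nonessential amino acids. The labels give the cell type of both as liver BNL 1ME A.7R.1, a chemically transformed line from mouse embryonic liver. There was 1 line per genotype, so a difference between the lines cannot be told apart from an effect of the fusion, and no label states whether replicates were separate cultures.

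NRF2, the transcription factor encoded by Nfe2l2, is made continuously and is normally destroyed. KEAP1 binds it and hands it to a ubiquitin ligase built on cullin 3. When reactive electrophiles or peroxides modify KEAP1, NRF2 escapes, pairs with small MAF proteins and switches on genes that carry an antioxidant response element. Its targets make glutathione, recycle glutathione and thioredoxin with NADPH, and detoxify quinones, and in the liver they protect against drugs and bile acids. NRF2 is controlled largely at the level of the protein, which RNA does not show.

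The libraries held 8095549 to 9969590 expected counts, and the 10 genes had between 129 and 4376 counts in a library. Levels are given as CPM, counts scaled to a common library size with TMM factors. DNAJ-PKAc C stood apart from DNAJ-PKAc A and B: their log2 CPM correlated across genes at 0.993 with each other, and at 0.914 and 0.911 with C. Summed over 20 proliferation genes, expression was 3373, 3481 and 397 CPM of plain totals in replicates A, B and C of DNAJ-PKAc, against 806 to 1087 CPM in WT. WT B held more of the ribosomal precursor Rn45s than the other libraries (2.66% of counts, against 0.912% to 1.05%). Of 20 measured hepatocyte markers, 16 had 0 counts in every library, among them Alb and Hnf4a. Only Afp and Krt8 passed the filter on low counts, each only through the group where it was higher. Afp was higher in DNAJ-PKAc (103, 61 and 19 counts, against 3, 0 and 1 in WT, edgeR adjusted p = 0.0252). Krt8 was lower (14, 9 and 1 counts, against 74, 64 and 68 in WT, edgeR adjusted p = 0.036). The sum over 12 fibroblast and stellate markers was 4889, 4576 and 16880 CPM in replicates A, B and C of DNAJ-PKAc, against 11340 to 13740 CPM in WT, and 7 of 10 leukocyte markers had 0 counts. Prkaca, which encodes the kinase part of the fusion, had groups that did not overlap but missed the threshold (log2 difference 0.59, SE 0.19, edgeR adjusted p = 0.154).

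Across the 10 genes, Txnrd1 rose in DNAJ-PKAc and none fell (adjusted p under 0.05 in edgeR's quasi-likelihood model, with Benjamini-Hochberg adjustment over all genes tested). Of all genes, 3.51% were called, 150 or 1.37% higher and 235 or 2.14% lower (114 and 295 with upper-quartile scaling). The median log2 difference, DNAJ-PKAc minus WT, was 0.45 over the 10 genes and 0.05 over all genes tested. Of the 10, 9 lay above 0, as did 53.9% of all genes tested. The groups did not overlap for Nqo1, Txnrd1 and Nfe2l2, all 3 with DNAJ-PKAc above WT, as for 15.8% of all genes tested. At an unadjusted p under 0.05 there were 3 of the 10 higher and 0 lower, against 11.8% and 9.72% of all genes. DESeq2 called 2 of the 10 higher, Txnrd1 and Nqo1, and 0 lower, against 3.17% and 5.7% of all genes. With limma-voom 1 was higher, Txnrd1, and 0 lower, against 1.29% and 2.27%.

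The call depended on which libraries were used. Without DNAJ-PKAc C, 7 of the 10 rose and 0 fell, against 14.3% and 11.0% of all genes. DNAJ-PKAc C was known to stand apart from A and B, so leaving it out narrows the spread within DNAJ-PKAc. Without any 1 of WT A, WT B, WT C, DNAJ-PKAc A or DNAJ-PKAc B, 0 of the 10 were called by edgeR, against 0.171% to 0.243% of all genes higher and 0.46% to 0.759% lower. In those 5 fits the adjusted p of Txnrd1 ran from 0.123 to 0.158, and at an unadjusted p under 0.05 there were 2 or 3 of the 10 higher and 0 lower, or 1 lower without WT C, against 6.03% to 7.8% and 6.35% to 9.77% of all genes.

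**Figure D1:**
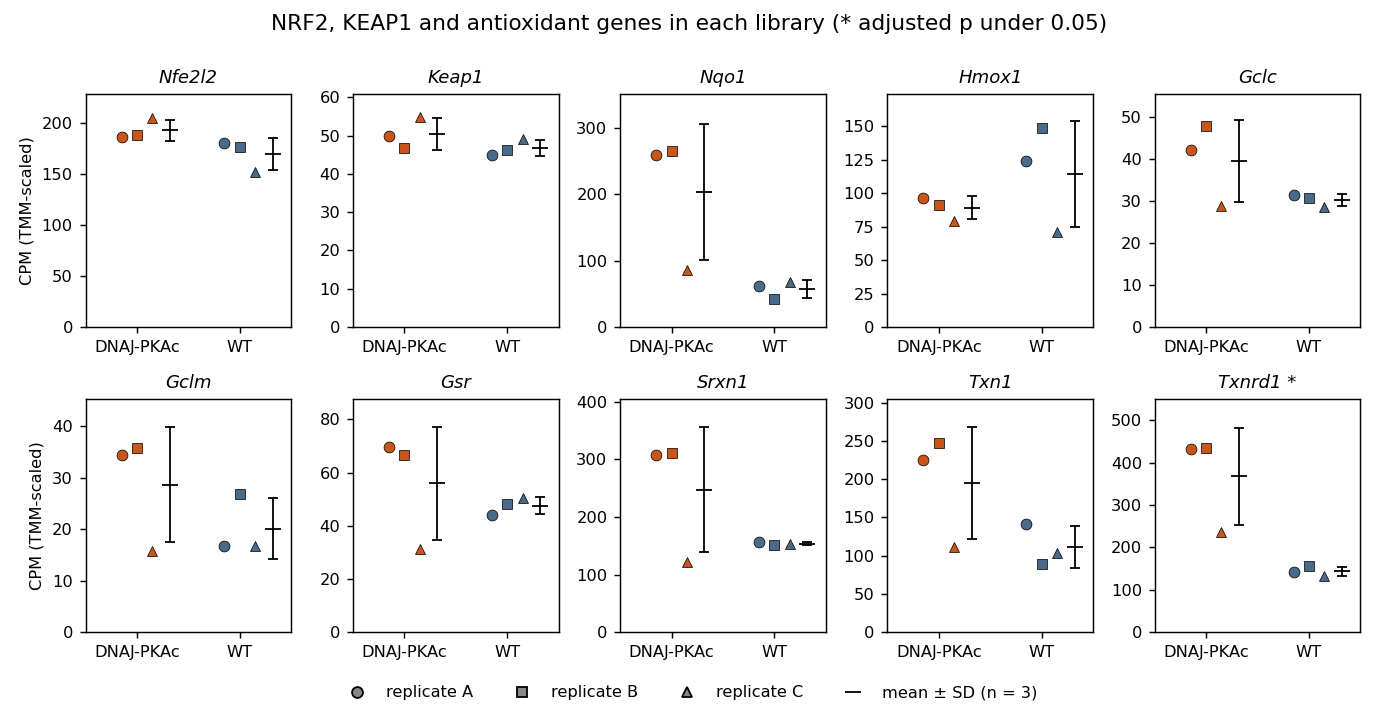
CPM (TMM-scaled, linear axis from 0) of the 10 genes in each library, with DNAJ-PKAc on the left and WT on the right of each panel, and circles, squares and triangles for replicates A, B and C. Bars give the mean and SD of 3 libraries. In Nqo1, Gclc, Gclm, Gsr, Srxn1, Txn1 and Txnrd1 the triangle of DNAJ-PKAc C lies well below DNAJ-PKAc A and B.

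The regulators themselves differed little. Nfe2l2 lies on chromosome 2 (75675513 to 75704663 in GRCm38, the assembly of mm10). Its level was 186, 189 and 205 CPM in DNAJ-PKAc replicates A, B and C, against 181, 177 and 152 CPM in those of WT. Every DNAJ-PKAc library lay above every WT library, but narrowly (log2 difference 0.19, SE 0.15, edgeR adjusted p = 0.473). Keap1 (chromosome 9, 21229730 to 21239332) was at 49.8, 46.7 and 54.8 CPM in DNAJ-PKAc, against 45.0, 46.2 and 49.2 CPM in WT. Its groups overlapped (log2 difference 0.11, SE 0.15, adjusted p = 0.687). Relative to their means these 2 genes varied least among DNAJ-PKAc libraries, and both had their highest value in DNAJ-PKAc C.

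Txnrd1 encodes cytosolic thioredoxin reductase, the selenoprotein that uses NADPH to keep thioredoxin reduced. It lies on chromosome 10 (82833951 to 82897724). It was at 433, 435 and 236 CPM in DNAJ-PKAc replicates A, B and C, against 142, 155 and 134 CPM in those of WT. Even the lowest DNAJ-PKAc library, C, was above all 3 WT libraries. The mean was 368 ± 114 CPM in DNAJ-PKAc and 144 ± 10.9 CPM in WT (SD, n = 3 each), a 2.56-fold increase (log2 difference 1.36, SE 0.26, edgeR adjusted p = 0.0375). Leaving out replicate C of DNAJ-PKAc gave an adjusted p of 0.000803, and leaving out A or B instead gave 0.150 and 0.140. The protein-coding gene Eid3 overlaps Txnrd1 but had 48 counts over all 6 libraries.

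Txn1 encodes thioredoxin itself, the small dithiol protein that Txnrd1 serves (chromosome 4, 57943373 to 57956411). Its level was 225, 248 and 111 CPM in DNAJ-PKAc, against 142, 89.5 and 103 CPM in WT. DNAJ-PKAc A and B lay above WT, while C fell inside the WT range (log2 difference 0.80, SE 0.33, adjusted p = 0.219). Srxn1 encodes sulfiredoxin, which repairs overoxidised peroxiredoxins (chromosome 2, 152105524 to 152111376). It was at 308, 312 and 122 CPM in DNAJ-PKAc, against 157, 152 and 153 CPM in WT. The 3 WT libraries were nearly equal, DNAJ-PKAc A and B lay above them and C below them (log2 difference 0.68, SE 0.34, adjusted p = 0.286). Without DNAJ-PKAc C both genes rose, Txn1 by 1.09 and Srxn1 by 1.01 on the log2 scale (adjusted p = 0.0119 and 0.00232).

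Nqo1 encodes the quinone reductase that is the most used readout of NRF2 activity (chromosome 8, 107388225 to 107403205). It was at 260, 266 and 85.5 CPM in DNAJ-PKAc, against 62.5, 41.8 and 67.7 CPM in WT. All 3 DNAJ-PKAc libraries lay above WT, with C close to the upper end of WT. Nqo1 had the largest difference of the 10 genes, 3.55-fold, but its spread in DNAJ-PKAc was also wide, 204 ± 102 CPM, against 57.3 ± 13.7 CPM in WT (SD, n = 3 each). The log2 difference was 1.83 (SE 0.44) and missed the threshold (edgeR adjusted p = 0.0802). Without DNAJ-PKAc C it was 2.20 and passed (adjusted p = 0.00125). Without A or B instead it was 1.62 and 1.59 and missed the threshold (adjusted p = 0.248 and 0.245).

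Hmox1 went the other way. It encodes heme oxygenase 1, which breaks down heme and is controlled both by NRF2 and by the heme-sensing repressor BACH1 (chromosome 8, 75093618 to 75100593). It was at 96.7, 91.0 and 79.6 CPM in DNAJ-PKAc, against 124, 149 and 70.9 CPM in WT. The DNAJ-PKAc libraries all lay within the wide WT range (log2 difference -0.36, SE 0.27, edgeR adjusted p = 0.455). Of the 10 genes it was the only one with a negative difference with all 6 libraries, and it was not called in any of the 15 alternative fits.

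The genes of glutathione supply were also higher in DNAJ-PKAc A and B than in C. Gclc and Gclm encode the catalytic and the modifier subunit of glutamate-cysteine ligase, the first and rate-limiting step of glutathione synthesis. Gclc (chromosome 9, 77754535 to 77794489) was at 42.3, 47.9 and 28.8 CPM in DNAJ-PKAc, against 31.6, 30.7 and 28.6 CPM in WT. Gclm (chromosome 3, 122245487 to 122267215) was at 34.4, 35.7 and 15.7 CPM in DNAJ-PKAc, against 16.8, 26.8 and 16.7 CPM in WT. In both genes DNAJ-PKAc A and B were above every WT library and C was not. The log2 differences were 0.39 (SE 0.22, edgeR adjusted p = 0.322) for Gclc and 0.51 (SE 0.36, adjusted p = 0.418) for Gclm. Gsr encodes glutathione reductase, which regenerates reduced glutathione (chromosome 8, 33653238 to 33698162). It was at 69.8, 66.7 and 31.3 CPM in DNAJ-PKAc, against 43.9, 48.3 and 50.3 CPM in WT, and C lay below every WT library (log2 difference 0.24, SE 0.30, adjusted p = 0.665). Without DNAJ-PKAc C all 3 rose, by 0.58, 0.81 and 0.52 on the log2 scale for Gclc, Gclm and Gsr (adjusted p = 0.0276, 0.0475 and 0.0307). Without DNAJ-PKAc A instead, none was called, at 0.34, 0.36 and 0.05 (edgeR adjusted p = 0.604, 0.714 and 0.962). The same held without B, at 0.23, 0.33 and 0.09 (adjusted p = 0.693, 0.741 and 0.925).

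Counted library by library, DNAJ-PKAc A had 9 of the 10 genes above every WT library and B had 8, with 0 below in either. Over all genes tested 36.4% and 37.9% lay above every WT library in A and B, and 32.8% and 33.5% below. DNAJ-PKAc C had 4 above (Nfe2l2, Keap1, Nqo1 and Txnrd1) and 3 below (Gclm, Gsr and Srxn1), against 34.9% and 29.5% of all genes. The median of the 10 genes against the WT mean was 0.68, 0.76 and -0.02 on the log2 scale in replicates A, B and C of DNAJ-PKAc, while the median of all genes was 0.02, 0.02 and 0.04. The summed proliferation genes moved with this split, high in A and B, and in C lower than in any WT library. The summed fibroblast and stellate markers split the opposite way, lower than in any WT library in A and B and higher in C. Single markers differed. In C, Col1a2 and Pdgfrb lay above every WT library, while Col1a1, Col3a1, Dcn and Pdgfra lay inside the WT range. Acta2 was above every WT library in A, B and C (35.4, 34.7 and 56.7 CPM, against 7.18 to 10.5 CPM in WT, edgeR adjusted p = 0.0102). The part of either list in the split was not tested. Bulk RNA also cannot tell fewer cells that express a gene from less RNA per cell.

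**Figure D2:**
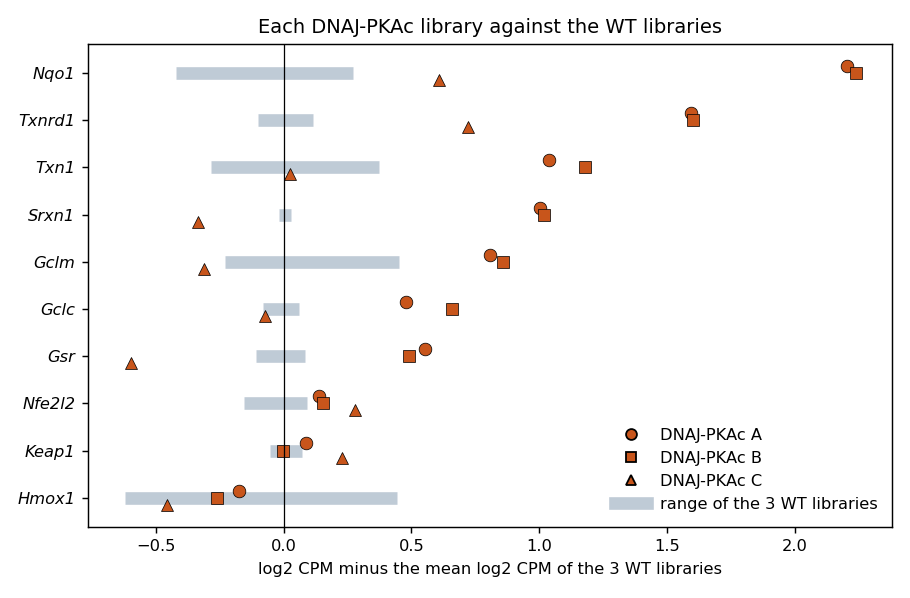
Difference of each DNAJ-PKAc library from the mean of the 3 WT libraries in log2 CPM, 1 row per gene, with the range of the WT libraries as a grey bar. Nqo1 and Txnrd1 lie right of the bar in all 3 DNAJ-PKAc libraries, whereas Gsr, Srxn1 and Gclm lie right of it in A and B and left of it in C.

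Levels of different genes were compared per kilobase of the longest protein-coding GENCODE transcript. In DNAJ-PKAc Txn1 came first at 185 ± 69.6 CPM per kilobase, followed by Nqo1 at 131 ± 65.9, Txnrd1 at 102 ± 31.5, Srxn1 at 88.0 ± 38.7, Nfe2l2 at 78.2 ± 4.23 and Hmox1 at 56.8 ± 5.56 (SD, n = 3). Neighbours from Txn1 to Nfe2l2 in that order differed by less than their SDs added together. Gsr (20.9), Keap1 (14.0), Gclc (11.6) and Gclm (5.12 CPM per kilobase) were lowest, and among neighbours in that order Gsr and Keap1, and Keap1 and Gclc, differed by less than their SDs added. In WT the order was Txn1 (106 ± 25.7), Hmox1 (72.9 ± 25.3), Nfe2l2 (68.7 ± 6.31), Srxn1 (54.7 ± 0.911), Txnrd1 (39.7 ± 3.01) and Nqo1 (36.9 ± 8.82 CPM per kilobase; SD, n = 3). Among neighbours there, Txn1 and Hmox1, Hmox1 and Nfe2l2, and Txnrd1 and Nqo1 differed by less than their SDs added. Gsr (17.8), Keap1 (13.0), Gclc (8.85) and Gclm (3.59 CPM per kilobase) were again lowest.

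As a description, start sites of these genes were searched for the core of the antioxidant response element, TGACNNNGC, on both strands. RefSeq windows from 250 bases before to 50 bases after a start site were given for 7 of the 10 genes, 9 windows in all on GRCm38.p6, and 4 held the core, as did 12.4% of 32851 windows of all genes. Txnrd1 has 3 windows, and the core lay in that of the start at 82859206, inside the gene but in no exon of GENCODE M21. Gclm and Nfe2l2 held it before the start sites of their windows (122245557 and 75704663), and Srxn1 held it 29 bases after its start. The Gclm start of the window lies downstream of the first base of the gene given above, 122245487. The stretch just after the Nfe2l2 start was found whole in no GENCODE transcript of that gene. The windows of Nqo1, Txn1 and Keap1 held no match, but bases outside the windows were not searched, so an element farther away would be missed. The Srxn1 window also held 2 copies of the AP-1 element TGAGTCA, found in 5.20% of all windows and overlapping no core match. The copy nearer the start is followed by GC. It then reads TGAGTCAGC, which differs from the searched core only by a G in place of its C after TGA. The cyclic AMP response element TGACGTCA was in none of the 9 windows and in 1.79% of all windows. The AP-1 and cyclic AMP elements were added after the values were seen. The matched stretches before the start sites are shown 5′ to 3′ along the gene, with matches in capitals.
Txnrd1, chr10:82859089-82859147, plus strand, antioxidant core on the opposite strand 92 bases before the start: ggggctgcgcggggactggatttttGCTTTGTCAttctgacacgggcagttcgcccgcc
Gclm, chr3:122245398-122245456, plus strand, antioxidant core on the opposite strand 134 bases before the start: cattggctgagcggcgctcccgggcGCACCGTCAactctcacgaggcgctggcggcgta
Nfe2l2, chr2:75704870-75704913, minus strand, antioxidant core 240 bases before the start, in an exon of the divergent noncoding gene E030042O20Rik: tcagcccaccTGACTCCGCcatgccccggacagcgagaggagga
Srxn1, chr2:152105397-152105510, plus strand, AP-1 elements 102 and 45 bases before the start: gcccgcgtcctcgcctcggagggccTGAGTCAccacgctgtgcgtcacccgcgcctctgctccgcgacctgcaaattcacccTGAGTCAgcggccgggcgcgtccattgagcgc
A match is a description of these letters and does not show binding.

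Beyond the 10 genes, 5 further lists of the pathway held 158 genes of the table, of which 129 were tested. Of these 7 rose and 3 fell, 5.43% and 2.33%, against 1.37% and 2.14% of all genes. Their median log2 difference was 0.28, and 94 of the 129 lay above 0, or 72.9%, against 53.9% of all genes. The groups did not overlap with DNAJ-PKAc higher for 42 of them, or 32.6%, against 15.8% of all genes, and with DNAJ-PKAc lower for 7, or 5.43%, against 13.1%. Dropping replicate C of DNAJ-PKAc gave 36 of the 129 that rose and 8 that fell, against 14.3% and 11.0% of all genes. With any 1 of the other 5 libraries left out instead, edgeR called none of them lower, and the sole higher call was Gstm7 without WT A. In those fits the adjusted p of the called genes was at most 0.217, for Sqstm1 without DNAJ-PKAc A. The differences of all 10 called genes kept their sign.

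**Figure D3:**
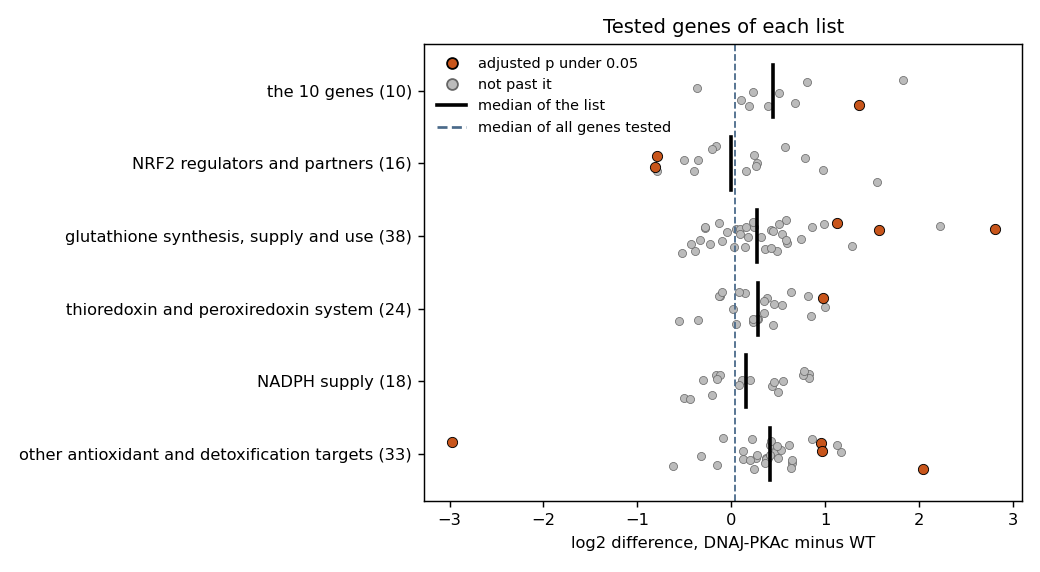
The log2 difference, DNAJ-PKAc minus WT, of every tested gene in the 10 genes and in the 5 other lists, with filled orange points for genes past the threshold and a black line at each list's median. Medians run from about 0 for the regulators to 0.45 for the 10 genes, against 0.05 for all genes tested (dashed line).

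Among 16 tested regulators and partners of NRF2, 2 fell and 0 rose, against 2.14% and 1.37% of all genes. The median was about 0. Cul3, the cullin on which the KEAP1 ubiquitin ligase is built, was at 103, 113 and 93.2 CPM in DNAJ-PKAc, against 183, 176 and 181 CPM in WT. All 3 DNAJ-PKAc libraries, C included, were far below WT (0.572-fold, log2 difference -0.81, SE 0.14, edgeR adjusted p = 0.0317). Sqstm1, which encodes the autophagy receptor p62 that can sequester KEAP1 and is itself an NRF2 target, was at 449, 457 and 500 CPM in DNAJ-PKAc, against 908, 773 and 759 CPM in WT. It fell by 0.79 on the log2 scale (SE 0.15, adjusted p = 0.0397). Mafk, a small MAF partner of NRF2 named after its values were seen, was at 58.6, 54.6 and 41.9 CPM in DNAJ-PKAc and at 29.6 to 30.2 CPM in WT, and missed the threshold (log2 difference 0.78, SE 0.17, adjusted p = 0.0625).

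In the glutathione list 3 of 38 tested genes rose and 0 fell, against 1.37% and 2.14% of all genes, and the median was 0.28. Glrx, glutaredoxin, which uses glutathione to reduce protein disulfides, was at 50.1, 59.2 and 45.9 CPM in DNAJ-PKAc, against 27.4, 22.2 and 21.4 CPM in WT. It rose 2.18-fold (log2 difference 1.13, SE 0.18, edgeR adjusted p = 0.0235). The mu-class glutathione transferase gene Gstm5 rose 2.98-fold (19.6 ± 6.79 CPM in DNAJ-PKAc and 6.56 ± 0.894 CPM in WT, SD, n = 3 each; adjusted p = 0.0365). Its relative Gstm7 rose 7.03-fold at low counts (39 to 55 in DNAJ-PKAc libraries and 3 to 12 in WT; adjusted p = 0.0289). Gstm7 passed the filter on low counts only through DNAJ-PKAc, the group where it was higher. Mu-class genes are close paralogs, so reads could be shared among them and both calls are uncertain. The deposited counts of Gstm5 and Gstm7 were whole numbers in every library, and sharing of reads was not tested. The cystine carrier gene Slc7a11, which supplies cysteine for glutathione and is named after its values were seen, was at 142, 159 and 80.5 CPM in DNAJ-PKAc, against 90.3, 113 and 69.2 CPM in WT (log2 difference 0.49, SE 0.30, adjusted p = 0.362).

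In the thioredoxin and peroxiredoxin list 1 of 24 rose and 0 fell, against 1.37% and 2.14% of all genes, and the median was 0.28. Prdx6, a peroxiredoxin that reduces phospholipid peroxides, was at 234, 233 and 169 CPM in DNAJ-PKAc, against 123, 92.1 and 108 CPM in WT. It rose 1.97-fold (log2 difference 0.98, SE 0.20, edgeR adjusted p = 0.0444), and the call was lost with RLE (adjusted p = 0.0550) and upper-quartile scaling (0.0634). Txnrd3, a thioredoxin reductase paralog of Txnrd1, was at 15.8, 15.8 and 15.6 CPM in DNAJ-PKAc, against 10.4, 7.82 and 8.61 CPM in WT (log2 difference 0.81, SE 0.20, adjusted p = 0.0870). Txnip, which encodes a protein that binds and inhibits thioredoxin, is named after its values were seen. It was at 14.6, 16.9 and 400 CPM in DNAJ-PKAc, against 155, 163 and 316 CPM in WT. DNAJ-PKAc A and B were far below every WT library and C above them (log2 difference -0.56, SE 1.18, adjusted p = 0.807).

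**Figure D4:**
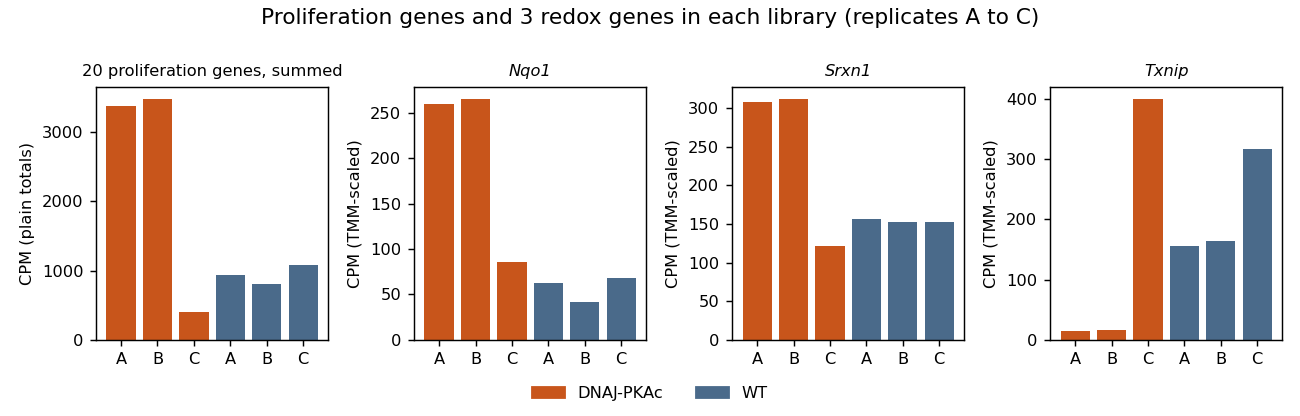
Summed CPM of 20 proliferation genes (plain library totals) and CPM of Nqo1, Srxn1 and Txnip (TMM-scaled) in each library, as bars from 0, with DNAJ-PKAc A to C left of WT A to C. DNAJ-PKAc A and B are highest for the proliferation genes (3373 and 3481 CPM), Nqo1 and Srxn1 and lowest for Txnip (14.6 and 16.9 CPM).

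Of 18 tested genes of NADPH supply 0 rose and 0 fell by edgeR, with 6 higher and 1 lower at an unadjusted p under 0.05, against 11.8% and 9.72% of all genes. DESeq2 and limma-voom each called 1 of them higher, against 3.17% and 1.29% of all genes. Tkt, transketolase of the pentose phosphate pathway, was at 371, 360 and 436 CPM in DNAJ-PKAc, against 214, 191 and 252 CPM in WT (log2 difference 0.83, SE 0.17, edgeR adjusted p = 0.0513). Idh2, the mitochondrial NADP-dependent isocitrate dehydrogenase, was at 336, 320 and 292 CPM in DNAJ-PKAc, against 231, 188 and 227 CPM in WT (log2 difference 0.56, SE 0.16, adjusted p = 0.116). In both genes all 3 DNAJ-PKAc libraries were above WT.

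Among 33 tested antioxidant and detoxification genes, 3 rose and 1 fell, against 1.37% and 2.14% of all genes. The median was 0.41, and 28 lay above 0, against 53.9% of all genes. Ftl1, the ferritin light chain that stores iron, was at 3940, 3642 and 4125 CPM in DNAJ-PKAc, against 2076, 1719 and 2231 CPM in WT. It rose 1.94-fold (log2 difference 0.96, SE 0.17, edgeR adjusted p = 0.0320; 0.0648 with upper-quartile scaling), with the caveat that near-identical ferritin copies in the genome could share its reads. Cat, catalase, which splits hydrogen peroxide, was at 127, 131 and 116 CPM in DNAJ-PKAc, against 70.7, 57.9 and 63.1 CPM in WT, and rose 1.95-fold (log2 difference 0.96, SE 0.15, adjusted p = 0.0203). Ptgr1, a reductase of reactive alkenals and prostaglandins, was at 36.5, 33.5 and 17.3 CPM in DNAJ-PKAc, against 8.77, 4.78 and 7.51 CPM in WT, and rose 4.14-fold (adjusted p = 0.0303). Slc40a1, the iron exporter ferroportin, fell by 2.98 on the log2 scale (SE 0.46, adjusted p = 0.0203), with 2 to 3 counts in DNAJ-PKAc libraries and 14 to 25 in WT. Slc40a1 passed the filter on low counts only through WT, the group where it was higher.

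**Figure D5:**
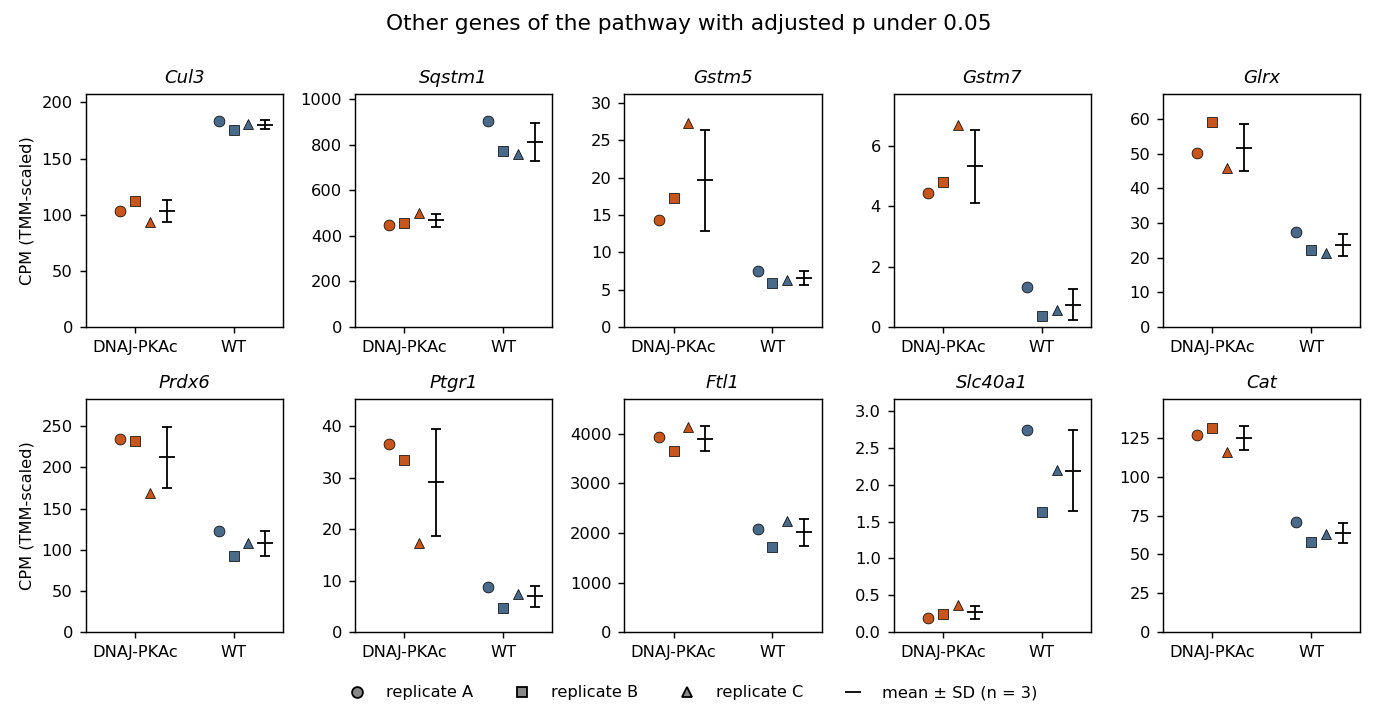
CPM (TMM-scaled, linear axis from 0) of the 10 further pathway genes past the threshold, with DNAJ-PKAc left of WT, circles, squares and triangles for replicates A, B and C, and bars for the mean and SD of 3 libraries. In all 10 the groups do not overlap, which passing the test nearly fixes, and DNAJ-PKAc C lies on the same side of WT as A and B.

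Among 9792 genes of at least 5 CPM, those whose log2 CPM was most like that of Txnrd1 over the 6 libraries included Fastkd3 (Pearson r 0.998) and Actb (0.995). With 6 points that share library effects such values are common, and 199 genes exceeded 0.95.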

How the data were processed

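The authors deposited expected counts per gene symbol, not normalized, 1 column per library, per the file headers. The submitters' processing notes name STAR 2.5.2b, RSEM 1.3.0 and mm10 but not what each was used for. The kit was stranded and for total RNA, per the labels' protocols. Annotation and strand setting: not given in the sources used here. Counts were rounded, filtered with filterByExpr (minimum count 10), scaled by TMM and fitted in edgeR 4.0.16 (R 4.3.3) by a robust quasi-likelihood model with the group as the only term. Tests are 2-sided, with Benjamini-Hochberg adjustment over all 10975 genes and a threshold of 0.05. SE is of the log2 difference. Per-library differences use log2 CPM with a prior count of 2. Alternatives used DESeq2 1.42.0 and limma 3.58.1, other scalings and filters, a replicate block and libraries left out. The fits were tested on simulated counts with known changes. No simulated library was made to stand apart as DNAJ-PKAc C does, so the simulation does not cover that case. Since no label says that replicates were separate cultures, p-values measure spread among libraries that may be technical. The genes and lists were chosen with earlier results of these data known. Named were the 10 genes, the 2 genes of smallest p in each further list and up to 2 more past the threshold, and the 3 genes most like the gene of smallest p, of which 1 is not reported here, with exceptions stated. Some further marker genes are given as sums. Endothelial (summed at most 2.39 CPM) and bile duct markers (369 to 3047 CPM, mostly Spp1) were also listed.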

Additional observations from a re-analysis of the deposited data

How the results depend on the processing

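Over 15 alternatives, 130 of 150 values of the 10 genes kept their direction and their side of the threshold, 6 lost it, 13 passed it and 1 reversed: Keap1 at a log2 difference of -0.0116 with both DNAJ-PKAc C and WT B omitted. The cause was not tested. The counts over all genes (150 higher, 235 lower), the 10 genes (1, 0) and the further lists (7, 3) depended mainly on the libraries. With DESeq2 they were 348 and 626 (3.17% and 5.7% of all genes), 2 and 0, and 16 and 3. Omitting both DNAJ-PKAc C and WT B gave 2633 and 2703 (23.9% and 24.5% of all genes), 7 and 0, and 48 and 22. Leaving out 1 library gave 19 to 1587 higher and 51 to 1221 lower over all genes, 0 to 7 higher of the 10, and 0 to 36 higher and 0 to 8 lower in the lists, with the highest count each time without DNAJ-PKAc C. With the replicate block they were 56 and 143, 0 and 0 (Txnrd1 adjusted p = 0.0572), and 1 (Ggt1) and 0. The letters pair no libraries in the labels. The deviations of equal letters correlated at 0.211, -0.198 and 0.0282 for A, B and C, and those of unequal letters at -0.282 to 0.303. With so few libraries these values cannot show whether libraries were paired. Why calls were lost with the block was not tested. RLE, upper-quartile scaling, both other filters, limma-voom and library sizes without structural RNA kept Txnrd1 called (adjusted p 0.0298 to 0.0426) and Nqo1 uncalled (0.0798 to 0.105). Gstm7 and Slc40a1 rest on few counts (3 to 12 in WT for Gstm7, and 2 to 3 in DNAJ-PKAc for Slc40a1). Both passed the filter on low counts only through the group where they were higher, and both count among the 7 and 3.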

Other observations

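Among 16 tested glutathione transferases, DNAJ-PKAc C was the highest DNAJ-PKAc library in 10 and the lowest in 5 (Gsta4, Gsto1, Gstcd, Mgst1 and Mgst3), a count made after their values were seen, as was the choice of the genes below. Gstm1 was at 66.0, 56.9 and 112 CPM in DNAJ-PKAc replicates A, B and C, against 27.7, 30.1 and 38.5 CPM in WT (log2 difference 1.29, SE 0.29, edgeR adjusted p = 0.0635). Gstm2 was at 112, 126 and 160 CPM in DNAJ-PKAc, against 72.7, 47.7 and 80.4 CPM in WT (adjusted p = 0.0848). Gstp1, the pi-class enzyme, was at 593, 565 and 648 CPM in DNAJ-PKAc, against 322, 267 and 402 CPM in WT (adjusted p = 0.0605). Ggt1, which breaks down glutathione outside the cell, averaged 14.6 ± 8.97 CPM in DNAJ-PKAc and 3.10 ± 0.619 CPM in WT (SD, n = 3 each; log2 difference 2.23, SE 0.46, adjusted p = 0.05001, just above the threshold). In all 4 the groups did not overlap, with DNAJ-PKAc higher, as for 15.8% of all genes tested, and DNAJ-PKAc C was highest. In 8 of the 10 genes C was lowest of the DNAJ-PKAc libraries. How often C was highest or lowest of them over all genes was not counted. Reads of mu-class and pi-class paralogs could be shared, which was not tested. The deposited counts of Gstp1 were fractional in every library, and those of Gstm1 and Gstm2 were whole.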
